A study of Mus musculus with 6 samples.

Results

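Complement is a set of proteins that tag cells and particles for removal and recruit leukocytes, and 9 of its components and regulators are described here by their transcripts in mouse tongue tumours. The genes were chosen by symbol, as C1qa, C1qb, C1qc, C1ra, C2, C3, C4b, Cfb and Serping1, and all 9 were found among the 18437 genes of the deposited table. One group of C57BL/6 mice had received 4MOSC1 cells overexpressing LIGHT in the tongue (4MOSC1-LIGHT, 3 libraries), and the other had received 4MOSC1 control cells (4MOSC1-con, 3 libraries). 4MOSC1 is a mouse oral squamous cell carcinoma line, LIGHT is the TNF superfamily ligand encoded by Tnfsf14, and both groups shared host strain, cell line and injection site. The sources used here do not give age, sex, time of collection or the construct behind LIGHT. Bulk RNA depleted of ribosomal RNA was sequenced, and values are in TPM, a relative unit that corrects for transcript length.

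In the classical pathway the hexameric C1q, built from the A, B and C chains of C1qa, C1qb and C1qc, binds antibody or damaged surfaces and activates the proteases C1r and C1s, which cleave C4 and C2. In the alternative pathway factor B (Cfb) joins C3b to form a convertase that properdin stabilises, and both routes meet at C3. Macrophages and dendritic cells are the main makers of C1q in tissues, whereas C3, factor B, C4, C2 and the C1 inhibitor (Serping1) can also come from epithelial cells and fibroblasts and are known to respond to interferon and inflammatory cytokines.

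The labels held for the introduced gene: Tnfsf14 was listed at 26.2, 25.9 and 23.9 TPM in the LIGHT libraries, against 0.66, 0.53 and 0.79 TPM in the control libraries. The squamous keratins Krt5 and Krt14, which cannot tell the carcinoma from other squamous epithelium, were at 4906 ± 425 and 8916 ± 1659 TPM in LIGHT tumours and at 4875 ± 647 and 11421 ± 941 TPM in control tumours (mean ± SD, n = 3 each). For Krt14 every LIGHT library lay below every control library, and it was not called (limma adjusted p = 0.118). Changes were tested with limma on log2(TPM + 1), LIGHT minus control, over the 13167 genes that reached 1 TPM in 3 or more libraries, and a gene was called at a Benjamini-Hochberg adjusted p under 0.05. Of these genes 17.7% were called higher and 5.41% lower in LIGHT tumours. Higher calls made up 76.6% of all calls with the values as deposited, 52.3% after trimmed-mean (TMM) scaling and 43.6% after quantile normalization. The median over all tested genes was a log2 fold change of 0.09 as deposited and -0.04 with quantile normalization. In 29.6% of tested genes every LIGHT library lay above every control library. A bulk library cannot separate fewer cells of a type from less RNA per cell.

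Of the 9 complement genes 7 rose in LIGHT tumours, against the 17.7% of all tested genes called higher, and 0 fell. The 9 genes and the lists below were chosen with earlier results of these data known, so such shares are descriptions and not tests. At an unadjusted limma p under 0.05 the counts of the 9 were also 7 and 0. For that threshold, here and below, the share of all tested genes was not counted, so 17.7% is not its background. C3 rose most, the C1q chains and Cfb had log2 fold changes close to each other, and C1ra and Serping1 rose less. C4b and C2 were not called. In 8 of the 9 genes every LIGHT library lay above every control library, against 29.6% of all tested genes, with C4b the exception. The median log2 fold change of the 9 was 0.89, against 0.09 for all tested genes, and it was 0.79 after TMM scaling and 0.79 after quantile normalization. All 9 had passed the filter on low values, and none had passed through 1 group only.

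**Figure D1:**
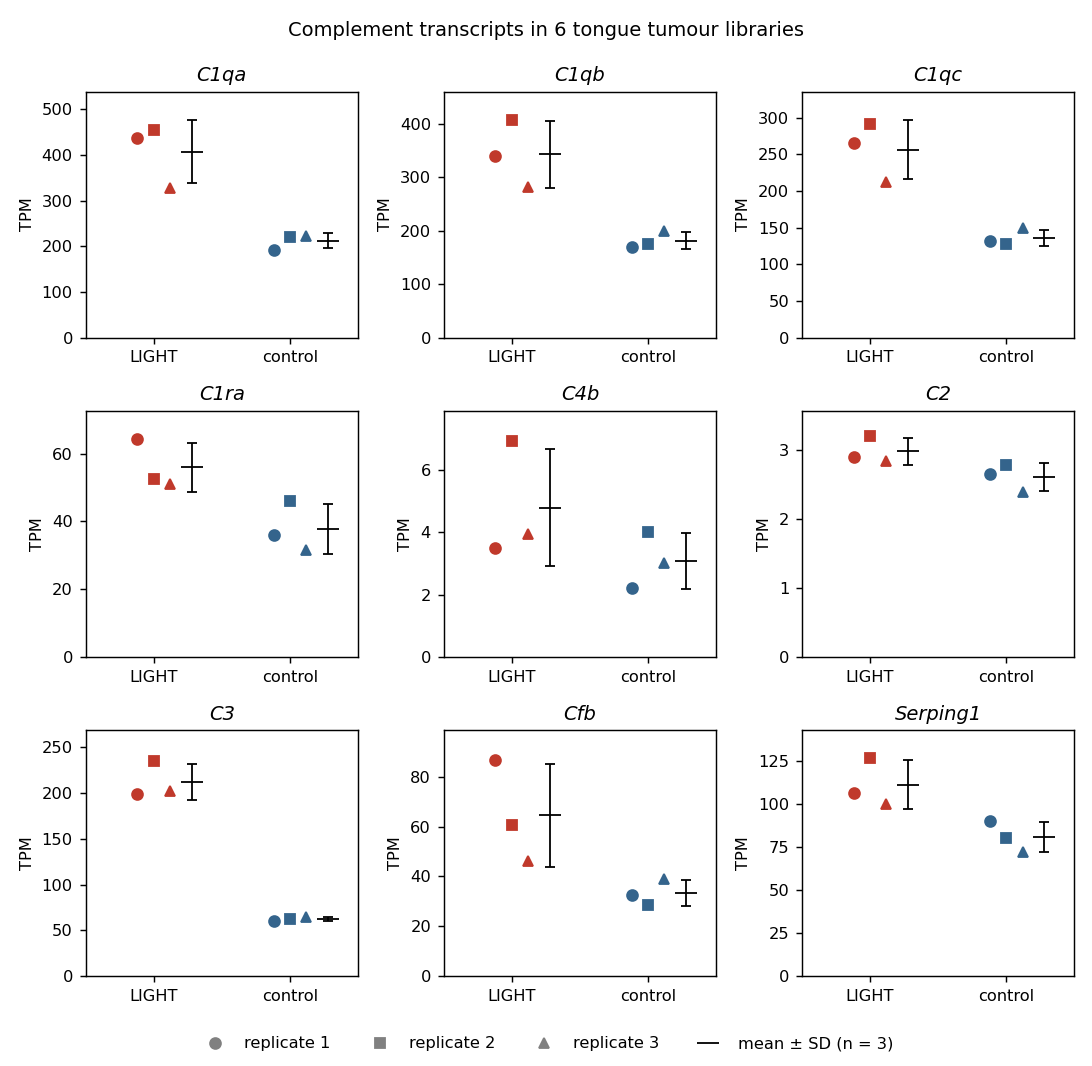
Abundance of the 9 complement genes in TPM, on linear axes from 0, with each point 1 library, LIGHT left of control, and bars the mean ± SD of 3 libraries. C3 lay between 200 and 235 TPM in the LIGHT libraries, above all control libraries (60.6 to 64.4 TPM), while C4b is the panel in which the groups overlap.

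The promoter bases of 3 genes are shown first because C1qb and C1qc moved together and C3 moved most. They are RefSeq sequences of build GRCm38.p6, from the 250 bases before the transcript start of the table, all on the minus strand and written 5′ to 3′. C1qb spans chr4:136886201-136886450, C1qc spans chr4:136892937-136893164, without 22 bases that another annotated start transcribes, and C3 spans chr17:57228137-57228386. Capitals mark matches, on either strand, to the PU.1 core GAGGAA, the C/EBP motif TTNNGNAA and the NF-kappaB consensus.
C1qb promoter: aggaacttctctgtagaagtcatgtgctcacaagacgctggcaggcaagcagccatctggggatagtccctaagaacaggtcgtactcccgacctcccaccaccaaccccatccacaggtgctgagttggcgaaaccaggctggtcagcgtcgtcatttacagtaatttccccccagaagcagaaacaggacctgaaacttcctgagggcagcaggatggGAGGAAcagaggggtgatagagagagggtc
C1qc promoter: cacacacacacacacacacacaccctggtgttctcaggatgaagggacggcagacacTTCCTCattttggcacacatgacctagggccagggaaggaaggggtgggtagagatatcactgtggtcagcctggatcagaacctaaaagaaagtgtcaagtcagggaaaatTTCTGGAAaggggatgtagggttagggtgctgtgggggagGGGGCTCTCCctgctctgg
C3 promoter: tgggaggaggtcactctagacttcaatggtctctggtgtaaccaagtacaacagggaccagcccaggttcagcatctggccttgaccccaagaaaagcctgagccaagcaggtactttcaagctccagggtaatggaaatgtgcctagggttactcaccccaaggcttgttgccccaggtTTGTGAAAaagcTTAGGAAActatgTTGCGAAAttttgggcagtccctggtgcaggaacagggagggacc

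The PU.1 core, a motif of a macrophage transcription factor, was found once in the C1qb window, at -30 to -25 counted back from the start, and once in the C1qc window, at -193 to -188. All windows were searched over 250 bases, those left off for C1qc included, and the core was found in 23.3% of 32851 windows. The C3 window held 3 matches to the C/EBP motif, at -70 to -63, -58 to -51 and -45 to -38, and the C1qc window held 1, at -81 to -74. The C1ra window, which is not printed, held 2, at -72 to -65 and -29 to -22. At least 1 match to that motif was found in 36.8% of all windows, and the share with 2 or 3 was not counted. The C1qc window also held 1 NF-kappaB consensus match, at -41 to -32, which 7.25% of all windows held. The STAT motif TTCNNNGAA (7.02% of windows) and the interferon response core, GAAA and GAAA with 2 bases between (2.98% of windows), had no match in these 4 windows. The marked matches did not overlap each other, and a match describes letters, not a bound site. The promoter table held 4 of the 9 genes, the other being C1ra.

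The C1q chains were the most abundant of the 9 transcripts in both groups, and all 3 nearly doubled. C1qa, the A chain, was listed at 438, 454 and 328 TPM in the LIGHT libraries, against 193, 221 and 223 TPM in the control libraries. Every LIGHT library was higher than every control library, with LIGHT replicate 3 the lowest of its group. The log2 fold change was 0.93 (SE 0.13, limma adjusted p = 0.00448).

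C1qb, the B chain, was at 341, 407 and 282 TPM in the LIGHT libraries, against 170, 176 and 199 TPM in the control libraries (log2 fold change 0.90, SE 0.14, limma adjusted p = 0.00516). C1qc, the C chain, was at 265, 291 and 213 TPM in the LIGHT libraries, against 131, 128 and 149 TPM in the control libraries (log2 fold change 0.90, SE 0.13, limma adjusted p = 0.00405). Neither chain overlapped between groups, and LIGHT replicate 2 was the highest and LIGHT replicate 3 the lowest for each of the 3 chains. The 3 genes lie side by side on chromosome 4 (GRCm38.p6), C1qb at 136880126 to 136886200, C1qc at 136889801 to 136892936 and C1qa at 136895916 to 136898844, with 3600 and 2979 bases between neighbours and no other gene of the RefSeq table in between. Their transcripts shared 0 words of 50 bases, so reads of that length tell the chains apart.

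The chains kept nearly the same proportions in all 6 libraries. C1qb was 0.78, 0.90 and 0.86 of C1qa in the LIGHT libraries, against 0.89, 0.80 and 0.89 in the control libraries. C1qc was 0.61, 0.64 and 0.65 of C1qa in the LIGHT libraries, against 0.68, 0.58 and 0.67 in the control libraries. Both ratios overlapped between groups, so the rise was shared by the 3 chains within the spread of the libraries. The calls of all 3 chains were kept without any 1 library, with adjusted p from 0.00396 to 0.0180. With TPM permuted between groups, the exact test (two-sided) gave p = 0.1 for each chain, the smallest that the 20 assignments of 6 libraries allow.

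Some macrophage markers rose beside the C1q chains. Of 12 markers listed without C1q, 11 were tested, 4 rose (36.4%, against 17.7% of all tested genes) and 7 were not called. The 4 were Lyz2, lysozyme (474 ± 67.1 TPM in LIGHT and 221 ± 45.1 TPM in control tumours), Ms4a7 (32.3 ± 2.46 and 19.8 ± 1.54 TPM), Aif1 (31.0 ± 6.73 and 15.6 ± 2.34 TPM) and the growth factor receptor Csf1r (46.8 ± 5.62 and 28.7 ± 4.28 TPM), each LIGHT then control. The markers summed to 672 to 826 TPM in LIGHT libraries and 409 to 474 TPM in control libraries. Among the markers not called, Cd14 was at 22.9 ± 7.11 TPM in LIGHT and 26.9 ± 5.26 TPM in control tumours (log2 fold change -0.25) and Mrc1 at 4.14 ± 1.94 and 4.42 ± 1.16 TPM (-0.13), and both overlapped between groups. Cd163 was the only marker below the filter, at 1.01 TPM or less.

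Set against the summed markers, mean C1q stood at 0.44, 0.47 and 0.41 in the LIGHT libraries and at 0.40, 0.37 and 0.45 in the control libraries, and the groups overlapped. The ratio to Csf1r was 7.35, 7.36 and 6.69 in the LIGHT libraries, against 5.89, 7.05 and 5.71 in the control libraries, and again overlapped. The ratio to Lyz2 overlapped too, at 0.68, 0.75 and 0.69 in LIGHT and 0.85, 0.64 and 0.97 in control libraries. Lyz2 averaged 474 TPM in LIGHT and 221 TPM in control tumours, within marker sums that averaged 765 and 436 TPM. The ratios to the sum and to Lyz2 are therefore not independent of each other. The outcome depended on the marker chosen.

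Against Cd68, a lysosomal glycoprotein, C1q was higher in every LIGHT library, at 3.79, 3.64 and 3.24 in LIGHT and 2.36, 2.79 and 2.32 in control libraries. With the mean of the 12 markers as a covariate the C1q log2 fold changes were 0.49, 0.21 and 0.36 for C1qa, C1qb and C1qc, and none was called (limma adjusted p = 0.514, 0.724 and 0.563). That covariate was 4.24 to 4.48 in LIGHT and 3.88 to 3.94 in control libraries, without overlap. The fit can therefore hardly tell it apart from the group. In that fit 3 genes were higher and 1 lower among all 13167, and the median SE of the 9 complement genes was 0.29 against 0.13. With the skeletal muscle covariate C1qb and C1qc also missed the threshold (limma adjusted p = 0.0634 and 0.0513).

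**Figure D2:**
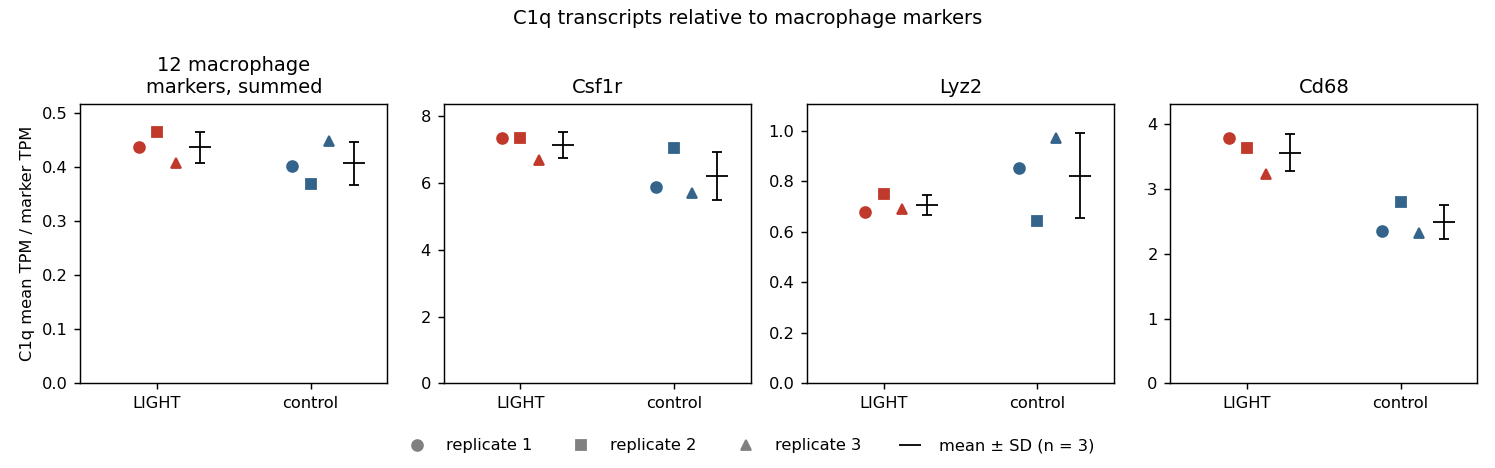
Mean TPM of C1qa, C1qb and C1qc divided by the TPM of macrophage markers, 1 point per library, LIGHT left of control, with mean ± SD of 3 libraries. The ratio overlaps between groups for the summed markers (0.41 to 0.47 in LIGHT, 0.37 to 0.45 in control), Csf1r and Lyz2, and separates for Cd68. Lyz2 is the largest part of the sum.

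C1ra, the mouse gene of the protease C1r, was at 64.3, 52.5 and 51.1 TPM in the LIGHT libraries, against 35.9, 46.0 and 31.7 TPM in the control libraries. The groups did not overlap, with control replicate 2 closest to the LIGHT libraries. The log2 fold change was 0.56 (SE 0.15, limma adjusted p = 0.0343). C1s1, which encodes the partner protease C1s, was at 275, 188 and 181 TPM in the LIGHT libraries, against 112, 130 and 86.2 TPM in the control libraries (log2 fold change 0.96, SE 0.20, limma adjusted p = 0.0138). The C1s1 call was lost with the macrophage, muscle and haemoglobin covariates (limma adjusted p = 0.308, 0.0771 and 0.0508). C1ra lies on chromosome 6 from 124512621 to 124523440, and C1s1 is its neighbour, 6903 bases away.

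C1s1 stood at 4.27, 3.58 and 3.54 times C1ra in the LIGHT libraries, against 3.11, 2.83 and 2.72 times in the control libraries. The 2 ranges did not overlap. The second copies C1rb and C1s2 did not exceed 0.22 TPM in any library. Of the 50-base words of C1ra 48.0% also occur in C1rb, and 24.3% of those of C1s1 in C1s2, so reads can be shared between copies and the split is uncertain. The call of C1ra was lost when control replicate 1, control replicate 3 or any 1 LIGHT library was left out (limma adjusted p of 0.0640 or more), without the filter on low values and with each of the 3 covariates.

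Serping1, the C1 inhibitor that inactivates C1r and C1s, was at 107, 127 and 99.9 TPM in the LIGHT libraries, against 89.9, 79.9 and 72.4 TPM in the control libraries. The groups did not overlap, with 10.0 TPM between the lowest LIGHT and the highest control library. Serping1 had the smallest change of the 7 called genes, 0.45 on the log2 scale (SE 0.12, limma adjusted p = 0.0312). Serping1 lies on chromosome 2 from 84765360 to 84775444. It was 0.31, 0.53 and 0.43 of the sum of C1ra and C1s1 in the LIGHT libraries, against 0.61, 0.45 and 0.61 in the control libraries, and the groups overlapped. Its call was lost when control replicates 2 or 3, or LIGHT replicates 1 or 2, were each left out (limma adjusted p from 0.0519 to 0.0955), after TMM scaling (limma adjusted p = 0.0728) and with each of the 3 covariates.

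C4b and C2, whose products C1s cleaves to make the classical C3 convertase, were the 2 least abundant of the 9 transcripts and were not called. C4b was at 3.49, 6.94 and 3.96 TPM in the LIGHT libraries, against 2.20, 4.00 and 3.03 TPM in the control libraries. The groups overlapped, because LIGHT replicate 1 lay below control replicate 2 and LIGHT replicate 3 just below it too. The log2 fold change was 0.49 (SE 0.25, 95% interval -0.09 to 1.06, limma adjusted p = 0.195; exact permutation p = 0.3).

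C4b lies on chromosome 17 from 34728139 to 34743902, and 35.2% of its 50-base words also occur in its annotated copy C4a. C4a itself was listed at 0.29 to 0.44 TPM over the 6 libraries. With the haemoglobin list as a covariate the log2 fold change of C4b was 0.09, and haemoglobin genes summed to 119, 2086 and 896 TPM in the LIGHT libraries and 70.0, 453 and 86.8 TPM in the control libraries. Replicate 2 was highest within each group for C4b and for the haemoglobin sum alike. The part of blood content in the C4b values was not tested further.

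C2 was at 2.90, 3.20 and 2.84 TPM in the LIGHT libraries, against 2.65, 2.78 and 2.39 TPM in the control libraries. The groups were separated by 0.06 TPM. The log2 fold change was 0.14 (SE 0.11, 95% interval -0.11 to 0.39, limma adjusted p = 0.376), and it was -0.12 after quantile normalization. C2 lies on chromosome 17 from 34862602 to 34882100, 87 bases from Cfb. As annotated in GENCODE M21 (GRCm38), C2 overlaps Zbtb12 on the opposite strand, and the gene model Gm20547 overlaps both C2 and Cfb. Since no source used here says that counting used strand, reads of C2 and Zbtb12 may not have been told apart, and those of Gm20547 may have been split.

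C3, the protein on which the pathways converge, was at 200, 235 and 202 TPM in the LIGHT libraries, against 60.6, 62.9 and 64.4 TPM in the control libraries. The 3 control libraries lay within 4 TPM of each other, and the lowest LIGHT library stood 135 TPM above the highest of them. C3 rose 3.39-fold in the mean, and its log2 fold change was 1.74 (SE 0.09, limma adjusted p = 0.000195). The call was kept without any 1 library (log2 fold change 1.66 to 1.78) and with the muscle and haemoglobin covariates (1.69 and 1.67). With the macrophage covariate the log2 fold change was 1.36 (SE 0.19), with a limma adjusted p of 0.226 and an unadjusted limma p of 0.000258.

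C3 lies on chromosome 17 from 57203967 to 57228136. Its nearest neighbour on 1 side is Tnfsf14, at 57189474 to 57194181, with 9785 bases and no other gene of the RefSeq table between them. C3ar1, the receptor of the fragment C3a, rose less, at 6.14, 6.90 and 6.00 TPM in LIGHT and 4.00, 4.47 and 4.74 TPM in control libraries (log2 fold change 0.44, SE 0.11, limma adjusted p = 0.0242). That call was lost when control replicates 1 or 2, or LIGHT replicates 2 or 3, were each left out, after TMM scaling or quantile normalization and with each covariate (limma adjusted p up to 0.800).

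Cfb, factor B, was at 86.6, 60.8 and 46.0 TPM in the LIGHT libraries, against 32.8, 28.6 and 39.1 TPM in the control libraries. The groups did not overlap, but Cfb had the widest spread relative to its mean among the called genes in LIGHT libraries, with LIGHT replicate 1 highest and LIGHT replicate 3 within 7 TPM of control replicate 3. The log2 fold change was 0.89 (SE 0.22, limma adjusted p = 0.0258). Cfb lies on chromosome 17 from 34856374 to 34862514. This call was lost when control replicates 1 or 2, or LIGHT replicate 2, were each left out (limma adjusted p from 0.0576 to 0.0813) and with the macrophage and muscle covariates.

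Cfp, properdin, which stabilises the alternative convertase, was at 29.5, 32.0 and 28.5 TPM in the LIGHT libraries, against 12.2, 18.1 and 12.2 TPM in the control libraries (log2 fold change 1.05, SE 0.15, limma adjusted p = 0.00448). It did not overlap between groups. Cfd, factor D, the protease that cleaves factor B, was below the filter, at 0.32, 0.14 and 0.11 TPM in LIGHT libraries and listed at 0 in all 3 control libraries.

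**Figure D3:**
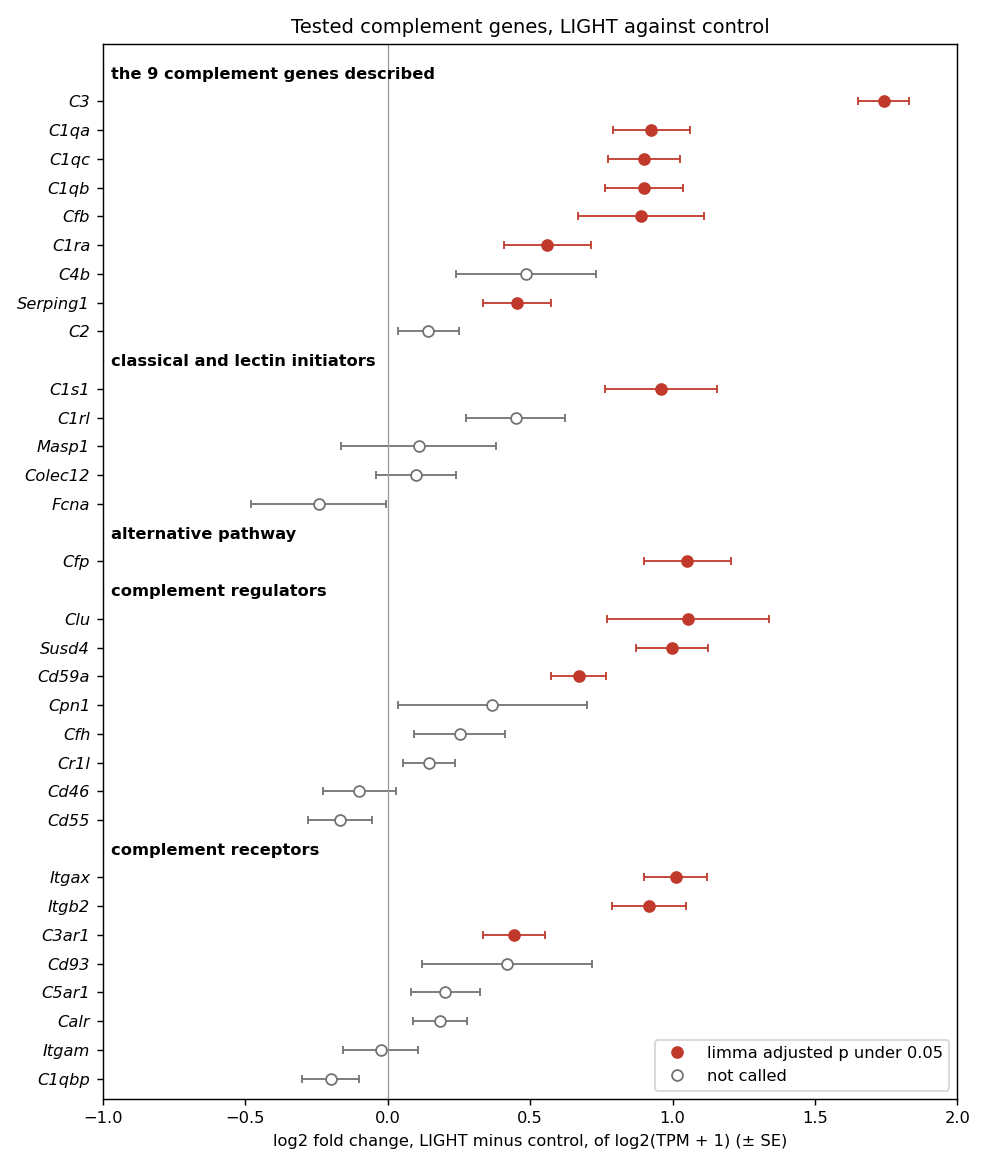
Log2 fold change, LIGHT minus control, of log2(TPM + 1) with its SE for the 9 complement genes and the 22 tested genes of the other complement lists, filled where limma's adjusted p is under 0.05. C3 stands at 1.74, the C1q chains between 0.90 and 0.93, and no called gene lies below 0.

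The C1q chains were then set against C3, C4b and Cfb within each library, as ratios of TPM, which cancel any scaling of a whole library. Mean C1q was 1.75, 1.63 and 1.36 times C3 in the LIGHT libraries, against 2.72, 2.79 and 2.96 times in the control libraries. All 3 LIGHT libraries lay below all 3 control libraries, so C3 gained on C1q: the log2 ratio was 0.65 ± 0.19 in LIGHT and 1.49 ± 0.06 in control tumours (SD, n = 3 each), a difference of -0.84. The difference was -0.92 to -0.74 without any 1 library.

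Mean C1q was 99.8, 55.3 and 69.3 times C4b in the LIGHT libraries, against 74.9, 43.8 and 62.8 times in the control libraries. It was 4.02, 6.32 and 5.96 times Cfb in the LIGHT libraries, against 5.03, 6.11 and 4.87 times in the control libraries. Both ratios overlapped between groups, with differences of the log2 ratio of 0.30 and 0.01 that were smaller than the pooled SD between libraries of 0.41 and 0.28. Without 1 library at a time the difference against Cfb ranged from -0.12 to 0.21, so its sign was not fixed. These ratios are descriptions, and no test was run on them.

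**Figure D4:**
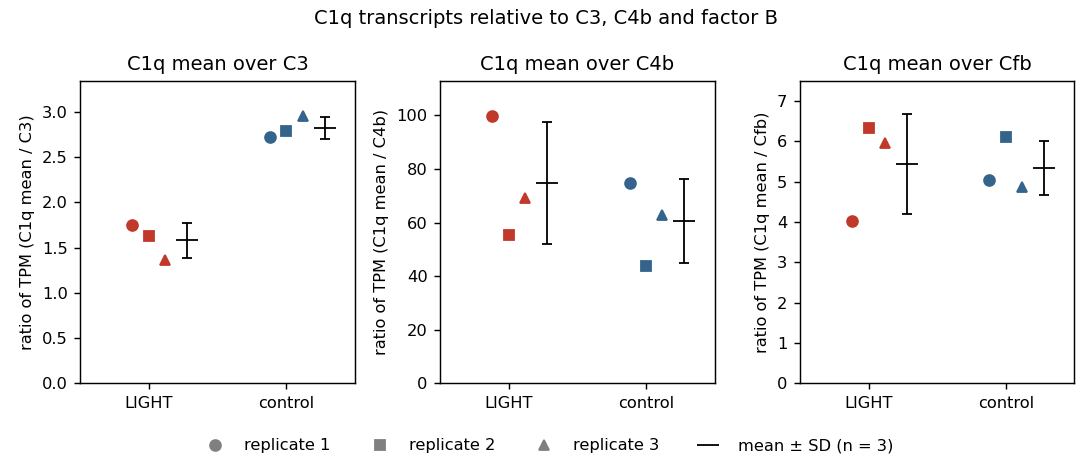
Mean TPM of the 3 C1q chains divided by the TPM of C3, C4b and Cfb, 1 point per library on axes from 0, LIGHT left of control, with mean ± SD of 3 libraries. The ratio to C3 is 1.36 to 1.75 in LIGHT and 2.72 to 2.96 in control libraries, while the ratios to C4b and Cfb overlap.

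C3 also gained on Cfb and C4b. It was 2.30, 3.87 and 4.39 times Cfb in the LIGHT libraries, against 1.85, 2.20 and 1.65 times in the control libraries. It was 57.2, 33.9 and 51.0 times C4b in the LIGHT libraries, against 27.6, 15.7 and 21.2 times in the control libraries. Neither ratio overlapped between groups. In the order of mean TPM, C3 stood in LIGHT tumours below C1qa, C1qb and C1qc and above Serping1, Cfb, C1ra, C4b and C2. In control tumours Serping1 stood above C3 and C1ra above Cfb, and the order was otherwise the same. The ranges of neighbours overlapped in LIGHT tumours among the C1q chains, between C1qc and C3 and between Cfb and C1ra. In control tumours they overlapped between C1qa and C1qb, between C1ra and Cfb and between C4b and C2.

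LIGHT replicate 2 was the highest LIGHT library for 7 of the 9 genes, and LIGHT replicate 3 the lowest for 7. C1ra and Cfb were highest in LIGHT replicate 1, where interferon response genes were also highest. Among control libraries the interferon sum was highest in control replicate 2, where C1ra was highest but Cfb lowest. The 15 interferon response genes summed to 9945, 7311 and 6466 TPM in the LIGHT libraries and 3615, 4613 and 3700 TPM in the control libraries. Of these genes 10 rose (66.7%, against 17.7% of all tested genes), among them the chemokines Cxcl9 (1128 ± 310 TPM in LIGHT and 213 ± 25.2 TPM in control tumours) and Cxcl10 (1505 ± 370 and 373 ± 102 TPM) and the GTPase Gbp5 (103 ± 30.9 and 31.0 ± 6.98 TPM). Of the 9 NF-kB and acute phase genes 2 rose, Icam1 and Lcn2, a share (22.2%) near that of all tested genes, with Saa3 at 667, 353 and 1446 TPM in LIGHT and 923, 686 and 550 TPM in control libraries. The part of interferon or NF-kB signalling in the complement values was not tested.

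**Figure D5:**
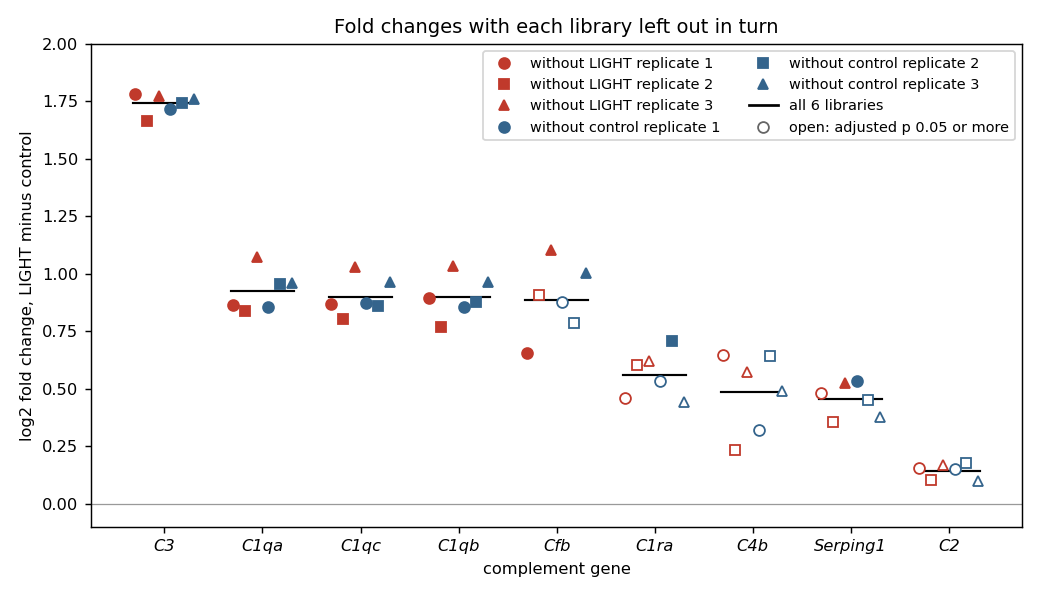
Log2 fold change, LIGHT minus control, of the 9 complement genes with each library left out in turn, filled where limma's adjusted p is under 0.05, with a line at the value from all 6 libraries. C3 and the C1q chains stay called in all 6 cases, Cfb in 3, Serping1 in 2 and C1ra in 1, and C4b and C2 in 0.

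The remaining complement genes were taken from lists of 49 symbols, of which 43 were listed and 22 passed the filter. Of the 22 tested, 8 rose (36.4%, against 17.7% of all tested genes) and 0 fell, and at an unadjusted limma p under 0.05 the counts were 9 and 0. Susd4 reached the filter in LIGHT libraries alone, which fixed its direction. Their median log2 fold change was 0.31, against 0.09 overall. After TMM scaling 7 rose and C1qbp fell, and with quantile normalization 7 rose and Cd55 fell.

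The terminal pathway, whose products from C5 to C9 form the membrane attack complex, was low. Of its 7 genes 6 were listed, and all 6 were below the filter. Hc, the mouse gene of C5, did not exceed 0.04 TPM, and the highest member was C8g, the lipocalin-family gamma chain of C8. It was at 0.94, 2.65 and 2.83 TPM in LIGHT and 0.37, 0.92 and 0.09 TPM in control libraries, which did not overlap and were not tested. Lectin pathway genes were low as well. Of 5 tested classical and lectin genes C1s1 alone rose (20.0%, against 17.7% of all tested genes). Masp1, a protease of the lectin pathway, was at 3.35, 3.21 and 5.67 TPM in LIGHT and 5.75, 3.06 and 2.55 TPM in control libraries.

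Among regulators 3 of 8 tested genes rose (37.5%, against 17.7% of all tested genes), or 2 of 7 without Susd4. Cd59a, the membrane inhibitor of the attack complex, was at 7.80, 7.35 and 7.90 TPM in the LIGHT libraries, against 4.50, 4.70 and 4.17 TPM in the control libraries (log2 fold change 0.67, SE 0.10, limma adjusted p = 0.00444). Clu, clusterin, was at 67.6, 64.8 and 128 TPM in LIGHT and 42.4, 48.9 and 29.2 TPM in control libraries (log2 fold change 1.05, SE 0.28, limma adjusted p = 0.0344). The Clu call was lost when control replicates 1 or 3, or LIGHT replicate 3, were each left out. It was also lost without the filter, with a replicate block and with each covariate. Susd4, a sushi domain protein, was at 2.42, 1.75 and 1.94 TPM in LIGHT and 0.51, 0.55 and 0.48 TPM in control libraries. The surface regulators that act on C3 convertases were not called: Cr1l (Crry) was at 31.3 ± 2.72 TPM in LIGHT and 28.2 ± 0.97 TPM in control tumours, Cd55 at 3.94 ± 0.25 and 4.56 ± 0.50 TPM, and Cd46 at 1.43 ± 0.24 and 1.60 ± 0.20 TPM (SD, n = 3 each).

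Among receptors and C1q-binding proteins 3 of 8 tested genes rose (37.5%, against 17.7% of all tested genes). Itgax and Itgb2, the alpha and beta chains of complement receptor 4, were at 36.7 ± 2.96 and 53.4 ± 5.58 TPM in LIGHT tumours and at 17.8 ± 2.14 and 27.9 ± 4.03 TPM in control tumours, with log2 fold changes of 1.01 and 0.92 (limma adjusted p = 0.00197 and 0.00410). C3ar1 was the third. Itgam, which pairs with Itgb2 in complement receptor 3, was at 9.71 ± 0.59 TPM in LIGHT and 9.97 ± 1.67 TPM in control tumours and was not called (limma adjusted p = 0.914). C5ar1, the C5a receptor, was at 3.92 ± 0.28 and 3.29 ± 0.47 TPM (limma adjusted p = 0.269), and Vsig4 and Cr2 did not exceed 0.26 TPM in any library.

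Liver makes most plasma complement, and its defining transcript Alb did not exceed 0.04 TPM in any library, nor Apoa1 0.30 TPM. Of the 10 hepatocyte markers 6 were listed and 4 tested, and no call was made at a limma adjusted p under 0.05 (at an unadjusted p under 0.05 Trf and Apoa2, 2 of 4, were higher). The highest, Trf, which other tissues also express, was at 10.2, 16.8 and 12.7 TPM in LIGHT and 10.4, 9.76 and 7.17 TPM in control libraries. Apoa2 was at 1.04, 1.55 and 1.33 TPM in LIGHT and 0.62, 0.32 and 0.93 TPM in control libraries, and reached the filter through the LIGHT libraries. The list summed to 14.4 to 22.9 TPM in LIGHT and 11.4 to 12.9 TPM in control libraries, without overlap. Of 10 fibroblast markers 1 rose (10.0%, against 17.7% of all tested genes), Thy1, which T cells also express. The list summed to 629 to 808 TPM in LIGHT and 429 to 588 TPM in control libraries. Of 10 basal keratinocyte markers 1 fell, Sox2, where 5.41% of all tested genes were called lower. The keratinocyte sums were 12203 to 15952 TPM in LIGHT and 16094 to 18763 TPM in control libraries, without overlap. In 3 of these 10 markers every LIGHT library lay below every control library, against 11.6% of all tested genes. In 1 every LIGHT library lay above, against 29.6%. Of 9 tested T cell markers 8 rose (88.9%, against 17.7% of all tested genes). The T cell sums were 252 to 304 TPM in LIGHT and 66.8 to 163 TPM in control libraries. Of 12 skeletal muscle markers 1 rose (8.33%, against 17.7% of all tested genes), Tpm1. All 12 had positive log2 fold changes, with a median of 0.65. The muscle sums were 5301 to 8663 TPM in LIGHT and 3431 to 5817 TPM in control libraries. The part of these cell types in the complement values was not tested beyond the covariates given.

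For 3 profiles the most similar genes were found by the root mean square difference of log2(TPM + 1), centred on each gene's mean, over the 6 libraries and 10180 genes at a mean of 5 TPM or more. Nearest to mean C1q were Bcl2a1b, a BCL2 family gene with close copies, Rcsd1 and the lysosomal protease gene Ctsz, with differences of 0.05, 0.06 and 0.08. Nearest to C3 were Tmem176a, Extl1 and the MHC class II gene H2-DMb2, at 0.12, 0.14 and 0.14. Nearest to Cfb were Batf2, a leucine zipper transcription factor gene, Gm35498 and the Schlafen gene Slfn8, at 0.12, 0.13 and 0.13. Tmem176a averaged 427 TPM in LIGHT and 130 TPM in control tumours, and Batf2 averaged 71.4 and 35.1 TPM.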

How the data were processed

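RNA of 6 tongue tumours was sequenced, 3 libraries per group. The authors deposited TPM for each gene, to 2 decimals, with 1 column per library per the file headers. The submitters' processing notes list Bowtie2, HISAT and the build GRCm38.p6 without versions or roles; the sources used here do not name a quantifier, annotation or strand setting. Each column sums to 1000000 within rounding, so TPM keeps no depth, which is unknown, and counting intervals are not available. Between 13183 and 13271 genes reached 1 TPM in LIGHT libraries and between 12713 and 12838 in control libraries. Libraries were grouped by title, and no 2 libraries held identical values. No label names the animal behind a library, so the spread behind the p-values may be technical.

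The test was limma 3.58.1 (R 4.3.3; linear model, moderated variances with trend, 2-sided) on log2(TPM + 1), which understates changes of low genes, for genes reaching 1 TPM in 3 libraries. Alternatives were pseudocounts of 0.1 and 0.5, no filter, a filter of 5 TPM, TMM scaling factors, quantile normalization, a replicate block, covariates (mean log2 value of macrophage, skeletal muscle or haemoglobin lists), limma without trend and each library left out. The steps were tested on simulated data. The 9 genes and the lists were chosen with earlier results of these data known. Named genes were the 9, Tnfsf14, every called gene of the other complement lists, up to 3 of each marker list by smallest p, and the 3 nearest profiles of mean C1q, C3 and Cfb; others named were chosen after their values were seen. Promoters came from a RefSeq table. Python 3.11.15 and matplotlib 3.10.9 made the figures. One macrophage marker's own values are not reported here.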

Additional observations from a re-analysis of the deposited data

How the results depend on the processing

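Over the other settings the log2 fold changes of the 9 complement genes kept their sign except for C2 after quantile normalization (-0.12) and C4b with the macrophage covariate (-0.65). The 7 complement genes called higher numbered 0 with the macrophage covariate (1 at an unadjusted limma p under 0.05), 2 with the muscle covariate (C3 and C1qa), 5 with the haemoglobin covariate, 6 after TMM scaling and 4 to 6 without any 1 library, with 4 without LIGHT replicate 2. The 8 higher among the other complement genes numbered 0 with the macrophage covariate (7 at an unadjusted limma p under 0.05), 5 with the muscle and 5 with the haemoglobin covariate, and 5 to 8 without any 1 library, with 5 without LIGHT replicate 3. Against 0 lower, 1 of the other complement genes was lower after TMM scaling and 1 after quantile normalization. With any 1 LIGHT library left out, Susd4 missed the filter and was not tested. The 8 higher without LIGHT replicate 1 therefore include a gene not called with all 6 libraries. Among all genes 2325 were higher and 712 lower; these were 1399 and 1811 after quantile normalization, 3 and 1 with the macrophage, 688 and 109 with the muscle and 976 and 207 with the haemoglobin covariate, and 1833 and 1673 after TMM scaling. Without any 1 library 1145 to 1888 were higher and 314 to 773 lower, the lowest both without LIGHT replicate 3; counts moved over 1.5 times also without LIGHT replicate 2 (1536 and 360) and control replicate 3 (1294 and 420), and the lower count without control replicates 1 (409) and 2 (378). The cause of these shifts was not tested. The log2 ratio of C1q to C3 differed by -0.92 to -0.74 without any 1 library, that to C4b by 0.07 to 0.49 and that to Cfb by -0.12 to 0.21.

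Replicate numbers were not treated as pairing the libraries: same-numbered libraries had correlated deviations of 0.37, 0.24 and 0.01, and LIGHT replicate 2 correlated better with control replicate 3 (0.33). With a replicate block 8 complement genes were higher, C4b (limma adjusted p = 0.0387) being added, and 7 other complement genes, without Clu (limma adjusted p = 0.0731), among 2325 higher and 907 lower genes. Depth is unknown, so values under 1 TPM carry no stated precision.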

Other observations

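The genes around C3 were looked up after its values were seen. Within 200 kb of C3 on either side 13 genes were tested, of which 4 were higher, 2 lower and 7 not called. The 4 include C3 itself and the introduced gene Tnfsf14, with log2 fold changes of 1.74 and 3.99, and 2 of the other 11 were higher, against 17.7% of all tested genes. On the far side of C3, Gpr108 was at 46.9 TPM in LIGHT and 47.9 TPM in control tumours and Trip10 at 27.4 and 26.5 TPM, and neither was called (limma adjusted p = 0.816 and 0.776). On the far side of Tnfsf14, Tnfsf9, another TNF family ligand, was at 15.1 TPM in LIGHT and 16.8 TPM in control tumours (limma adjusted p = 0.456). The other higher genes were Vav1 and Dennd1c, with log2 fold changes of 0.58 and 0.86, and the lower ones were Crb3 and Gtf2f1, at -0.54 and -0.47.

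The ratio of C3 to its receptor gene C3ar1 was 32.5, 34.1 and 33.6 in the LIGHT libraries, against 15.2, 14.1 and 13.6 in the control libraries. The libraries of each group lay close together, and the groups did not overlap.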
